A study of Bactrocera dorsalis with 16 samples.

Results

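Small RNA sequencing was used to compare ovary with fat body at the stage labelled 13 d in female flies of Bactrocera dorsalis, the oriental fruit fly, a pest of fruit crops. The comparison used 4 of the 16 libraries of the series, 2 of ovary and 2 of fat body. Of the 747 distinct sequences in the deposited table, 265 were kept because they had a normalised signal of at least 10 in at least 2 of these 4 libraries. They comprised 189 sequences named after known miRNAs, with 89 different miRNA numbers, and 76 with PC names, which mark candidates predicted by the authors' software.

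Both tissues came from females kept on yeast extract and sugar under equal hours of light and dark. The labels give no mating state, number of animals or dissection method. They call the libraries biological replicates but name no separate cultures or animals, so the p-values below measure only the spread between these samples. Recovered read numbers, estimated from the spacing of the low values, were 1865217 and 1079750 in ovary and 921485 and 951567 in fat body. On the log2 scale, libraries of 1 tissue correlated at r = 0.968 in ovary and 0.966 in fat body, while libraries of different tissues correlated at 0.554 to 0.638, across 265 sequences that are not independent of each other. The candidate in the title of the series, pc-3p-116, was under that name in 0 entries and was not analysed here.

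MicroRNAs are short RNAs that guide Argonaute proteins to messenger RNAs and lower the output of those messengers. Bases 2 to 8, the seed, set most of the pairing, so miRNAs with 1 seed can share targets. In the ovary of flies, the germ line and its follicle cells build the egg and load it with maternal RNA. The fat body stores fat and glycogen and makes the yolk proteins that the ovary takes up, so the tissues compared here are the source and the destination of yolk. In Drosophila, miRNAs of the miR-309 cluster are known for the clearance of maternal messengers in the early embryo.

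The sequences below carry the main differences, and they are shown as DNA letters from the deposited table with the seed in capitals. The first lines are sequences that were higher in ovary, grouped so that shared seeds stand together, with miR-11 and miR-279 added because they share a seed with miR-6 and miR-286 and were not called. The last lines are sequences that were lower in ovary.
bdo-miR-318: tCACTGGGctttgtttatctca
bdo-miR-309b: tCACTGGGtaaagtttgtcct
bdo-miR-6: tATCACAGtggctgttccttat
bdo-mir-5a-p3: tATCACAGtgattttcctttat
bdo-miR-11: cATCACAGtctgagttcttgct
bdo-miR-286: tGACTAGAccgaacactcgtgct
dgr-miR-279_R-2: tGACTAGAtccacactcatt
bdo-mir-4-p5: tCTTTGGTggcctagctttga
bdo-miR-9c: tCTTTGGTattctagctgtaga
PC-3p-204_49387: tATTGCACaatccccggcctga
ame-miR-92a-3p_L+1: tATTGCACttgtcccggcctat
bdo-miR-92b: aATTGCACtagtcccggcctgc
bdo-miR-994_R+1: tAAGGAAAtagtagccgtgatt
dvi-miR-989-3p_R+1: tGTGATGTgacgtagtggaaca
dme-miR-274-5p_R-1: tTTGTGACcgacactaacgggt
bdo-miR-252: cTAAGTACtagtgccgcaggag
bdo-miR-1: tGGAATGTaaagaagtatggag
bdo-miR-276a: tAGGAACTtcataccgtgctct
bdo-mir-276b-p3: tAGGAACTtaataccgtgctct
bdo-miR-8_R+1: tAATACTGtcaggtaaagatgtc

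Names are those of the table. A prefix gives the species of the matching miRNA (bdo for Bactrocera dorsalis, dme for Drosophila melanogaster, and others), R+1 or L-1 a base gained or lost at the right or left end, and p3, p5, 3p and 5p the arm of the hairpin. Signal is the authors' normalised value, whose method of scaling is not given in the sources used here. In bulk tissue, fewer cells of a type and less RNA per cell cannot be told apart.

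Of the 265 sequences, 151 (57%) differed between the tissues at an adjusted p under 0.05 in limma, 97 higher in ovary (36.6%) and 54 lower (20.4%). The called differences were large, with 82 of the higher and 40 of the lower calls over 4-fold, and 26 of the higher and 3 of the lower calls over 64-fold, all on signal + 1. The median log2 difference, ovary minus fat body, was 4.06 among the higher calls, -2.54 among the lower calls and 0.39 over all 265 sequences. Scaling by TMM shifted the median of all sequences by -0.30 on the log2 scale, and scaling by library totals shifted it by 0.30. Part of the count was set by the filter, since 41 of the 97 higher calls reached a signal of 10 in the ovary libraries alone and 16 of the 54 lower calls in the fat body libraries alone. Among the 157 sequences at 10 or more in all 4 libraries, 41 were higher and 33 were lower. Without ovary replicate 1 the total was 57 calls, and without ovary replicate 2 it was 78. Tissues did not overlap for 224 sequences (84.5%), including 73 that were not called.

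**Figure D1:**
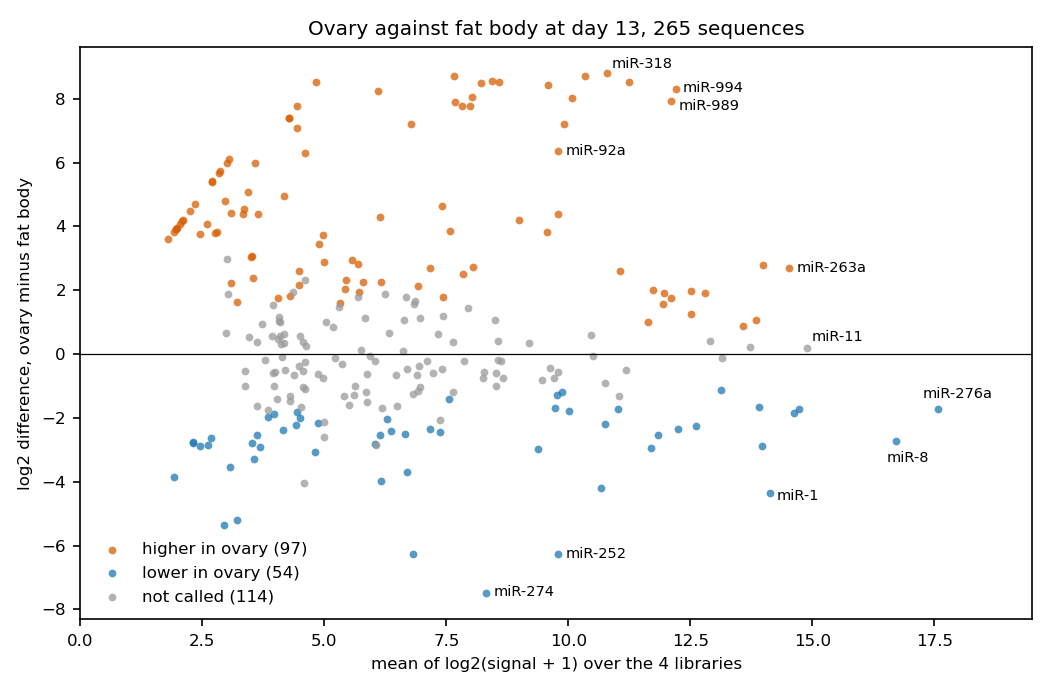
Log2 difference between ovary and fat body against the mean of log2(signal + 1) over the 4 libraries, 1 point for each of 265 sequences. The 97 sequences called higher in ovary reach 8.80 (miR-318), and the 54 called lower reach -7.49 (miR-274).

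The miRNA pool of the ovary was spread over more sequences than that of the fat body. The 10 most abundant sequences held 60.4% and 62.6% of the summed signal in the ovary libraries, against 83.0% and 84.2% in the fat body libraries. The order in ovary was miR-276a, miR-994, miR-989, miR-263a, miR-6, miR-12, miR-8, miR-318, miR-11 and miR-286. In fat body it was miR-276a, miR-8, miR-1, miR-184, miR-14, miR-34, miR-11, miR-317, let-7 and miR-31b, so that miR-276a, miR-8 and miR-11 were the 3 shared members.

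The miRNA miR-276a led in both tissues (bdo-miR-276a, abundant across many insect tissues). It took 11.0% and 12.7% of the summed signal in ovary, against 29.5% and 33.8% in fat body. Its signal was 90470 and 124349 in ovary, against 320855 and 390061 in fat body, a log2 difference of -1.74 (SE 0.23, adjusted p = 0.00341). The tissues did not overlap, although no other sequence was more abundant in ovary.

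Apart from miR-11595, the largest differences in favour of the ovary lay in miRNAs known from the ovary and early embryo of Drosophila. Of the 15 called sequences with the largest fold and a mean of at least 100, 11 carried numbers of the miR-309 cluster (miR-309, miR-3, miR-286, miR-4, miR-5 and miR-6). The other 4 were miR-318, miR-994, miR-989 and miR-11595. Here, all 15 had a log2 difference between 7.90 and 8.80.

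In Drosophila the miRNA miR-318 lies beside miR-994 and is found mainly in ovaries. It had a signal of 33506 and 42138 in ovary, against 24.8 and 273 in fat body (bdo-miR-318, log2 difference 8.80, SE 1.17, adjusted p = 0.00341). Both ovary libraries stood far above both fat body libraries, and the fat body libraries differed from each other by 11.0-fold.

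The miRNA miR-994 (bdo-miR-994_R+1) was second in abundance in ovary, with 68481 and 101141, against 91.9 and 749 in fat body. Its log2 difference was 8.30 (SE 1.04, adjusted p = 0.00299). Border cell migration in the Drosophila ovary needs miR-989, which reached 57486 and 82625 in ovary, against 131 and 598 in fat body (dvi-miR-989-3p_R+1, log2 difference 7.94, SE 0.78, adjusted p = 0.0015). For both, as for miR-318, every ovary value exceeded every fat body value, and fat body replicate 2 held several times the signal of fat body replicate 1.

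The 7 tested sequences of miR-989, miR-318 and miR-994, used here as ovary markers, were all higher in ovary, beside 36.6% called higher among all sequences. Of the 7, 3 had passed the filter through the ovary libraries alone and could be called in no other direction. The 7 summed to 163072 and 229642 in ovary, against 259 and 1648 in fat body, so the sum in fat body replicate 2 was 6.36 times that in replicate 1. Among the 7, 4 were higher in fat body replicate 2 than in replicate 1, as were all 15 sequences of the largest fold and 47 of all 97 sequences called higher. The part of ovary RNA in the fat body libraries was not tested. Without fat body replicate 2 the log2 difference of bdo-miR-318 was 10.51, and without fat body replicate 1 it was 7.10. Leaving out an ovary library ended its call, with an adjusted p of 0.110 without replicate 1 and 0.1001 without replicate 2. Of these markers, 6 of 7 were called without fat body replicate 2 and 7 without replicate 1, but 1 without ovary replicate 1 and 2 without ovary replicate 2.

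**Figure D2:**
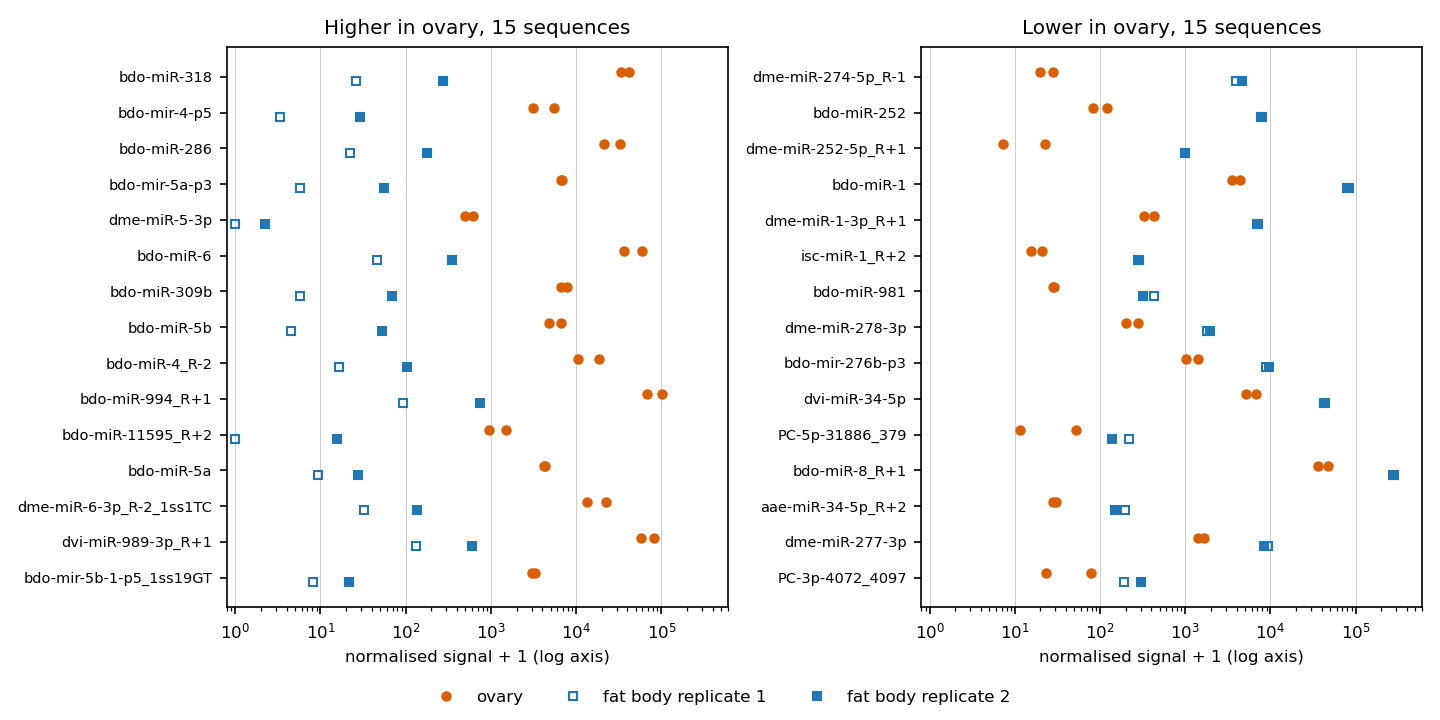
Normalised signal + 1 on a log axis in each library for the 15 sequences with the largest called fold in each direction and a mean of at least 100. Circles are the 2 ovary libraries and squares the fat body libraries, open for replicate 1 and filled for replicate 2. On the left, all 15 fat body pairs have replicate 2 above replicate 1.

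The 21 tested sequences with numbers of the miR-309 cluster were called higher in ovary, with a median log2 difference of 7.90, beside 36.6% called higher among all sequences. Of the 21, 9 had passed the filter through the ovary libraries alone, so their direction was set by the filter. The 16 with a mean of at least 100 were also called higher, with a median of 8.24. Together the 21 made up 14.3% and 17.8% of the summed signal in ovary, against 0.0145% and 0.0919% in fat body. Under TMM and with either fat body library left out all 21 stayed called, but without ovary replicate 1 only 5 and without ovary replicate 2 only 6 passed, with medians of 8.04 and 7.80.

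Within the cluster, miR-6 was the most abundant, with 36372 and 58585 in ovary, against 44.8 and 344 in fat body (bdo-miR-6, log2 difference 8.52, SE 1.02, adjusted p = 0.00266). A second form, dme-miR-6-3p_R-2_1ss1TC, had 13452 and 22499 in ovary, against 31.8 and 134 in fat body. Both forms were far higher in both ovary libraries than in either fat body library.

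The miRNA miR-286 reached 21161 and 32641 in ovary, against 21.2 and 179 in fat body (bdo-miR-286, log2 difference 8.70, SE 1.06, adjusted p = 0.00275). The 3p arm of miR-4 had 10635 and 18779 in ovary, against 15.3 and 103 in fat body (bdo-miR-4_R-2), and its 5p arm 3103 and 5469 in ovary, against 2.36 and 27.9 in fat body (bdo-mir-4-p5). Both arms of this hairpin, and of miR-5a and miR-5b, were among the 15 sequences with the largest fold.

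The arms of miR-5a were close in level in ovary. Its 3p arm had 6807 and 6554 in ovary, against 4.71 and 54.6 in fat body, and its 5p arm 4319 and 4239 in ovary, against 8.25 and 26.7 in fat body. A longer form, dme-miR-5-3p, consists of bdo-mir-5a-p3 plus 1 base. It had 613 and 489 in ovary, against 0 and 1.21 in fat body, where it rested on 1 recovered read. The ratio of recovered reads was 957, with a 95% counting interval of 172 to 37820, which covers counting error only.

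Other miRNAs of the Drosophila ovary and early embryo followed, apart from miR-184. Of 19 tested sequences of this list, which includes the ovary markers, 15 were higher and 4 lower, beside 36.6% and 20.4% among all sequences, and 5 had passed the filter through the ovary libraries alone and 1 through the fat body libraries alone. They had a median log2 difference of 4.38, or 3.84 when a sequence at 0 in fat body is set at its bound. The 4 lower ones were all forms of miR-184, which in Drosophila acts in the female germ line. It had 14438 and 15575 in ovary, against 43761 and 55499 in fat body (bdo-miR-184, log2 difference -1.72, SE 0.22, adjusted p = 0.00299). The levels of miR-184 did not overlap between tissues. Leaving out ovary replicate 1 left 6 higher and 1 lower, and leaving out ovary replicate 2 left 7 higher and 1 lower.

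The miRNAs miR-92a and miR-92b, of a family present in fly ovaries and embryos, were both higher in ovary. The first had 7891 and 8080 in ovary, against 74.6 and 126 in fat body (ame-miR-92a-3p_L+1, log2 difference 6.35, SE 0.37, adjusted p = 0.000399). The second had 3882 and 4136 in ovary, against 214 and 170 in fat body (bdo-miR-92b, log2 difference 4.38, SE 0.30, adjusted p = 0.000661). Neither overlapped between tissues.

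The miRNA miR-7, which acts in germ line stem cell division in Drosophila, had 5335 and 5191 in ovary, against 872 and 862 in fat body (bdo-miR-7_R-3, log2 difference 2.60, SE 0.25, adjusted p = 0.00146). The level of miR-995 was 2556 and 3215 in ovary, against 192 and 208 in fat body (bdo-miR-995, log2 difference 3.84, SE 0.31, adjusted p = 0.000852). For both, the lower ovary value exceeded the higher fat body value.

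A further group that was higher in ovary held miR-12, miR-283 and miR-304, which lie together in 1 cluster in Drosophila and were looked at after their values were seen. All 9 tested sequences with these numbers were called higher, beside 36.6% among all sequences. Of the 9, isc-miR-12_L+2 had passed the filter through the ovary libraries alone. The most abundant, bdo-miR-12_R+1, had 52311 and 35203 in ovary, against 7799 and 4977 in fat body (log2 difference 2.78, SE 0.34, adjusted p = 0.0029). The values of bdo-miR-283 were 7116 and 6577 in ovary, against 1521 and 1876 in fat body, with a log2 difference of 2.02. Those of bdo-miR-304_R-1 were 21361 and 20882 in ovary, against 11910 and 8675 in fat body, with a log2 difference of 1.05. The tissues did not overlap for any of the 3, as for 84.5% of all sequences, and the sizes differed among the 3.

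The miR-9 family, which acts in sense organ and epithelial development in Drosophila, had 10 of 12 tested sequences higher in ovary and 0 lower, beside 36.6% called higher among all sequences. Of the 12, 3 had passed the filter through the ovary libraries alone. The median was 3.87, or 3.48 at the bound, but 1.99 over the 7 with a mean of at least 100. It includes miR-4, whose 5p arm has the miR-9 seed. Apart from miR-4 the main forms were bdo-miR-9c, with 11752 and 16384 in ovary, against 3898 and 3453 in fat body, and bdo-miR-9b_R-1, with 10181 and 13220 in ovary, against 3066 and 2794 in fat body. Their log2 differences were 1.92 and 1.99. The form aae-miR-9a was not called, at 119 and 175 in ovary, against 195 and 205 in fat body (log2 difference -0.46, SE 0.41, adjusted p = 0.379). Without ovary replicate 1 the family had 4 calls, and without ovary replicate 2 it had 5.

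Sequences that were lower in ovary included most of the miRNAs known for fat and sugar metabolism. Of 19 tested sequences with numbers linked to fat body and metabolism in flies, 12 were lower and 0 were higher, beside 20.4% called lower among all sequences, with a median log2 difference of -1.74. They made up 20.7% and 19.7% of the summed signal in ovary, against 64.6% and 65.5% in fat body. The 7 that were not called were 3 sequences of miR-305, the 5p arms of miR-14 and miR-277, and a longer form each of miR-14 and miR-375. Without ovary replicate 1 the list had 7 lower calls. Of the 19, 2 had passed the filter through the fat body libraries alone.

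The miRNA miR-8 acts in the Drosophila fat body on growth and insulin signalling. It had 47354 and 36579 in ovary, against 280284 and 274327 in fat body (bdo-miR-8_R+1, log2 difference -2.74, SE 0.20, adjusted p = 0.000661). Its other arm, dme-miR-8-5p, had 1959 and 2340 in ovary, against 10811 and 11144 in fat body, a log2 difference of -2.36. Both arms stood apart between tissues by similar amounts.

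Known for its part in insulin signalling in Drosophila fat tissue, miR-278 had 201 and 281 in ovary, against 1784 and 1949 in fat body (dme-miR-278-3p, log2 difference -2.97, SE 0.34, adjusted p = 0.00229). The regulator of fat metabolism miR-14 had 12159 and 14732 in ovary, against 52695 and 43283 in fat body (bdo-miR-14, log2 difference -1.84). The 3p arm of miR-276b had 1007 and 1406 in ovary, against 8789 and 9713 in fat body (bdo-mir-276b-p3, log2 difference -2.96). It differs from miR-276a at 1 position outside the seed, and the reads of these near copies may have been shared between them in counting. Of the 8 tested sequences of miR-8, miR-14 and miR-278, used here as fat body markers, 6 were lower in ovary and 0 higher. Among all sequences 20.4% were called lower. The 8 had a median log2 difference of -2.10, and 1 of them had passed the filter through the fat body libraries alone.

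The cluster of miR-34, miR-277 and miR-317, which acts in ageing and metabolism in Drosophila, had 5 of 8 tested sequences lower in ovary and 0 higher, beside 20.4% called lower among all sequences, with a median of -2.04. Its main member, dvi-miR-34-5p, had 5166 and 6705 in ovary, against 44222 and 42294 in fat body (log2 difference -2.88, SE 0.23, adjusted p = 0.000852). The regulator of branched amino acid breakdown miR-277 had 1644 and 1396 in ovary, against 9345 and 8394 in fat body (dme-miR-277-3p, log2 difference -2.55). The third, dme-miR-317-3p_R-2_2ss21CT22AC, had 8095 and 9162 in ovary, against 27538 and 27487 in fat body, with a log2 difference of -1.68. All 3 leading members were lower in ovary, while the 5p arms of miR-277 and miR-317 and the 3p arm of miR-34 were not called. Leaving out either ovary library or fat body replicate 1 left 3 calls.

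The let-7 complex (let-7, miR-100 and miR-125), which times the passage to adult form in flies, had 2 of 10 tested sequences lower in ovary and 0 higher, close to the 20.4% called lower among all sequences, with a median of -1.05. The main let-7 had 2446 and 3308 in ovary, against 13596 and 13851 in fat body (bdo-let-7, log2 difference -2.27, SE 0.26, adjusted p = 0.0023), and bdo-miR-100 had 1307 and 996 in ovary, against 3799 and 3674 in fat body (log2 difference -1.71). The value for bdo-miR-125 was -0.91 (adjusted p = 0.0562). Under TMM 6 of the 10 were called lower, under TMM without the 5 most abundant sequences 4, and in a fit of 14 libraries 5.

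The largest differences in favour of the fat body were in miR-274 and miR-252. The first had 18.9 and 27.1 in ovary, against 3889 and 4649 in fat body (dme-miR-274-5p_R-1, log2 difference -7.49, SE 0.38, adjusted p = 0.00031). The second had 120 and 81.4 in ovary, against 7682 and 7871 in fat body (bdo-miR-252, log2 difference -6.28, SE 0.34, adjusted p = 0.00033). Replicates lay close together in fat body for both. A form of miR-252 longer by 1 base had the same difference of -6.28. With miR-981 and miR-958 these numbers had 7 tested sequences, and earlier results of these data had put them on the list. Of the 7, 2 had passed the filter through the fat body libraries alone, so their direction was set by the filter. In all, 6 were lower and 0 higher, beside 20.4% called lower among all sequences. The exception, bdo-miR-958, had 17.2 and 0.90 in ovary, against 24.8 and 366 in fat body (log2 difference -4.05, SE 1.72, adjusted p = 0.103). Its replicates lay far apart in both tissues. It was called without fat body replicate 1, with a replicate block, in DESeq2 and in the fits of 14 and 16 libraries.

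Markers of other cell types differed as well. The muscle miRNA miR-1 had 3496 and 4427 in ovary, against 79036 and 82675 in fat body (bdo-miR-1, log2 difference -4.36, SE 0.22, adjusted p = 0.00031). It took 7.28% and 7.15% of the summed signal in fat body. All 4 tested miR-1 sequences were lower in ovary, beside 20.4% called lower among all sequences. The 4 had summed signals of 3961 and 4780 in ovary, against 86547 and 89872 in fat body. The other muscle marker, miR-133, stood at 0.44 and 0.90 in ovary, against 1.18 and 0 in fat body, so 1 defining muscle marker was near 0 in both tissues. The part of muscle in the sequences that were lower in ovary was not tested.

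Of 3 tested nerve markers 1, bdo-miR-1000, had passed the filter through the fat body libraries alone, so its direction was set by the filter. In all, 2 of the 3 were lower in ovary. They were bdo-miR-137, at 118 and 32.5 in ovary, against 387 and 268 in fat body (log2 difference -2.35, adjusted p = 0.0493), and bdo-miR-1000, at 4.84 and 2.71 in ovary, against 43.6 and 26.7 in fat body (log2 difference -2.92, adjusted p = 0.00603). The nerve marker miR-124 had 36.1 and 14.5 in ovary, against 90.7 and 17.0 in fat body, and its groups overlapped. The summed nerve markers were 159 and 49.7 in ovary, against 521 and 312 in fat body. Without either ovary library 0 of the 3 were called, and 1 was called without either fat body library or with library totals. Among all sequences 20.4% were called lower.

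Gut markers did not move together. The marker bdo-miR-263b did not pass the filter, at 3.08 and 2.71 in ovary, against 23.6 and 9.72 in fat body. Of 9 tested sequences, 1 had passed the filter through the ovary libraries alone. In all, 4 of the 9 were higher in ovary and 0 lower, beside 36.6% called higher among all sequences. All 4 were forms of miR-263a, while miR-281 and miR-305 had no called sequence. The main form ranked among the 4 most abundant in ovary, with 61556 and 57919, against 9860 and 8789 in fat body (bdo-miR-263a_R-3, log2 difference 2.68, SE 0.19, adjusted p = 0.000661). The list summed to 76262 and 68568 in ovary, against 22518 and 24128 in fat body. Its median log2 difference was -0.14, or 0.52 without ovary replicate 2 and 0.19 with library totals, and 1 of its sequences was called without ovary replicate 1.

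**Figure D3:**
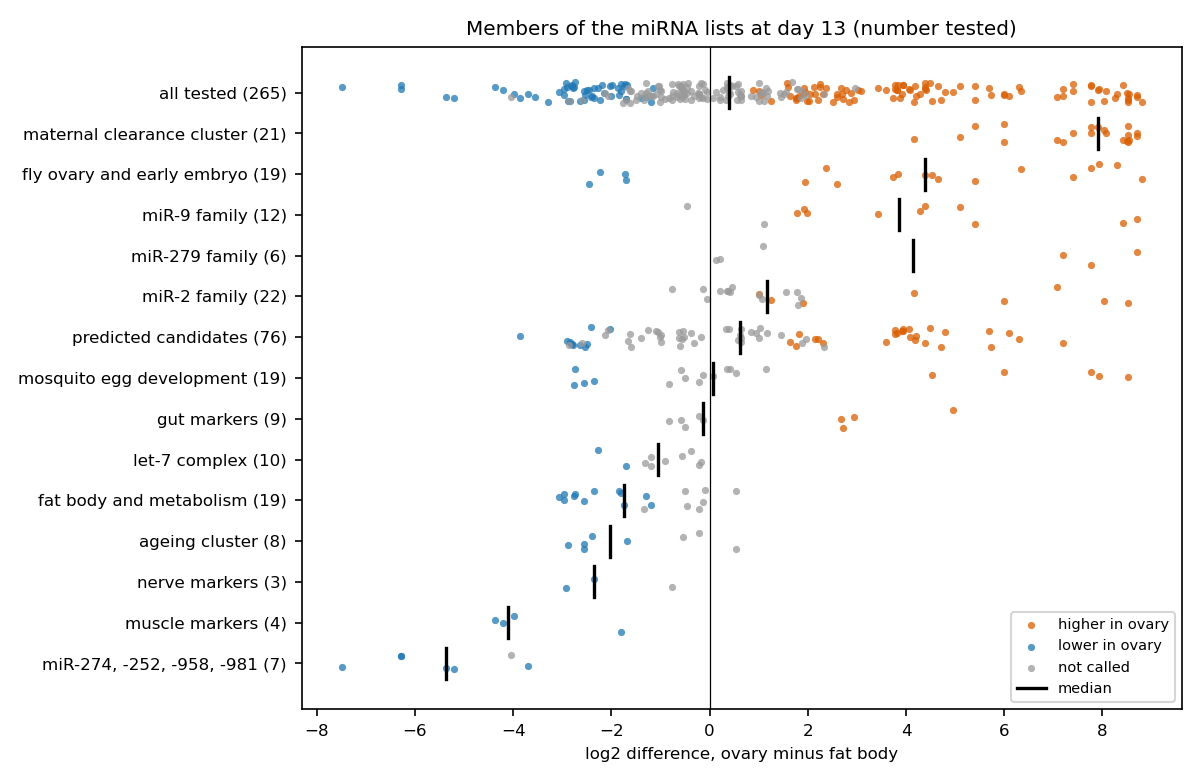
Log2 difference between ovary and fat body for the tested members of each list, 1 point for each sequence, with the median as a bar and the number tested in brackets. The median is 7.90 for the maternal clearance (miR-309) cluster, -1.74 for fat body and metabolism and 0.39 for all 265 sequences.

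The miRNAs that act on egg development or blood meals in mosquitoes had 5 of 19 tested sequences higher in ovary and 4 lower, beside 36.6% higher and 20.4% lower among all sequences. Of the 19, 2 had passed the filter through the ovary libraries alone and 1 through the fat body libraries alone. The direction of these was set by the filter. The median was 0.08, which turned to -0.25 under TMM, -0.09 under TMM without the 5 most abundant sequences, -0.22 without ovary replicate 1, -0.011 without fat body replicate 2 and -0.029 over the 14 with a mean of at least 100, of which 3 were higher and 3 lower. The higher ones were forms of miR-309 and miR-989, and the lower ones forms of miR-8 and miR-277. The miRNAs miR-275 and miR-305, known from mosquito egg development, were not called. The first had 10574 and 7396 in ovary, against 6883 and 6335 in fat body (bdo-miR-275, log2 difference 0.42, adjusted p = 0.242). The second had 10422 and 7246 in ovary, against 8758 and 10444 in fat body (bdo-miR-305, log2 difference -0.14, adjusted p = 0.683), and its tissues overlapped. Without ovary replicate 1 or 2, 1 sequence of this list was called higher.

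When sequences with 1 seed were summed, 105 of 190 seed groups (55.3%) differed, 63 higher in ovary (33.2%) and 42 lower (22.1%). In all, 35 seeds were held by at least 2 tested sequences and 13 by at least 2 miRNA numbers, with PC names counted as 1 number. No seed had members called in both directions, that is 0 of 35. Without ovary replicate 1 the seed groups had 44 calls and without ovary replicate 2 they had 59.

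The seed ATCACAG of the miR-2 family was held by 17 sequences of 10 numbers, namely miR-2a, miR-2b, miR-13a, miR-13b, miR-11, miR-308, miR-5, miR-5a, miR-5b and miR-6, several of which repress cell death genes in Drosophila. The sum was 116550 and 153655 in ovary, against 35884 and 39380 in fat body (log2 difference 1.83, SE 0.21, adjusted p = 0.00231). Its composition differed more than its sum. The miRNA miR-6 gave 42.8% and 52.8% of this signal in ovary, against 0.213% and 1.21% in fat body, and miR-11 gave 23.2% and 26.3% in ovary, against 73.9% and 78.7% in fat body.

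By itself, bdo-miR-11 had 26627 and 39995 in ovary, against 26225 and 30658 in fat body, and the tissues overlapped (log2 difference 0.20, SE 0.27, adjusted p = 0.546; -0.13 under TMM). Another member, bdo-miR-13a, had 10603 and 7734 in ovary, against 4136 and 3522 in fat body (log2 difference 1.25, SE 0.27, adjusted p = 0.0174). Within the list of the miR-2 family, which counts both arms of its hairpins, 8 of 22 sequences were higher and 0 lower. The median was 1.16, and the share called higher is close to that of all sequences (36.6%). Of the 22, 3 had passed the filter through the ovary libraries alone, so their direction was set by the filter. That list had 1 call without ovary replicate 1 and 3 without ovary replicate 2, a fit of 14 libraries gave 13 higher and 1 lower, and TMM gave 6 higher and 1 lower, with bdo-miR-13a no longer called.

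The seed CTTTGGT joined miR-9a, miR-9b, miR-9c and the 5p arm of miR-4, and its 5 sequences summed to 25256 and 35316 in ovary, against 7199 and 6518 in fat body (log2 difference 2.12, SE 0.24, adjusted p = 0.00221). It ran from -0.46 for miR-9a to 8.71 for miR-4.

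The seed CACTGGG joined miR-318 with miR-309a, miR-309b and miR-309. Its 5 sequences summed to 43582 and 54849 in ovary, against 38.9 and 372 in fat body (log2 difference 8.65, SE 1.10, adjusted p = 0.00312), and miR-318 gave 77.4% and 77.3% of that in ovary. The main forms of miR-309a, miR-309b and miR-318 had log2 differences of 7.77, 8.52 and 8.80. The form dme-miR-309-3p_R+1_1ss1GT was at 0 in both fat body libraries and at least 17.5-fold higher in ovary, with a floor of 3 reads per library. Leaving out an ovary library ended the call, with adjusted p of 0.105 without replicate 1 and 0.101 without replicate 2.

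The seed GACTAGA, in contrast, held members with unlike differences. The sum was 34636 and 52864 in ovary, against 12968 and 12664 in fat body (log2 difference 1.74, SE 0.26, adjusted p = 0.00551). The miRNA miR-286 gave 61.1% and 61.7% of it in ovary, against 0.164% and 1.41% in fat body, where miR-279, which acts in sense organ development and border cells in Drosophila, gave 97.8% and 96.6%. The level of miR-279 was 11345 and 18588 in ovary, against 12681 and 12239 in fat body, and the tissues overlapped (dgr-miR-279_R-2, log2 difference 0.22, adjusted p = 0.556; -0.11 under TMM). The table's aae-miR-286a form is bdo-miR-286 plus 1 base. Of the 6 tested sequences in the miR-279 family list, 1 had passed the filter through the ovary libraries alone. Its direction was set by the filter. In the list of the miR-279 family 3 of 6 sequences were higher and 0 lower, beside 36.6% called higher among all sequences, with a median of 4.14, or 7.19 over the 5 with a mean of at least 100, and the 3 were sequences of miR-286, of which 1 was called without either ovary library.

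A predicted candidate, PC-3p-204_49387, shares the seed ATTGCAC with miR-92a and miR-92b and differs from them at 6 and 5 of its 22 positions. It was more abundant than both in ovary, with 10852 and 12322, against 51.9 and 117 in fat body (log2 difference 7.20, SE 0.48, adjusted p = 0.000637). The 5 sequences of this seed were all higher in ovary, at log2 differences from 2.37 to 7.20. Their sum was 22777 and 24667 in ovary, against 353 and 425 in fat body (log2 difference 5.93, SE 0.21, adjusted p = 0.000197).

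The 5 sequences of the seed AGCACCA, from miR-995, miR-998 and a candidate, were also all higher in ovary, from 2.89 to 4.65. The candidate, PC-3p-56906_181, consists of bdo-miR-995 plus 2 bases. It rested on 2 recovered reads in fat body and had passed the filter through the ovary libraries alone. Its direction was therefore set by the filter, and the size of its difference depends on the pseudocount. The sum for this seed was 4077 and 5141 in ovary, against 295 and 294 in fat body (log2 difference 3.96, SE 0.24, adjusted p = 0.000428).

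**Figure D4:**
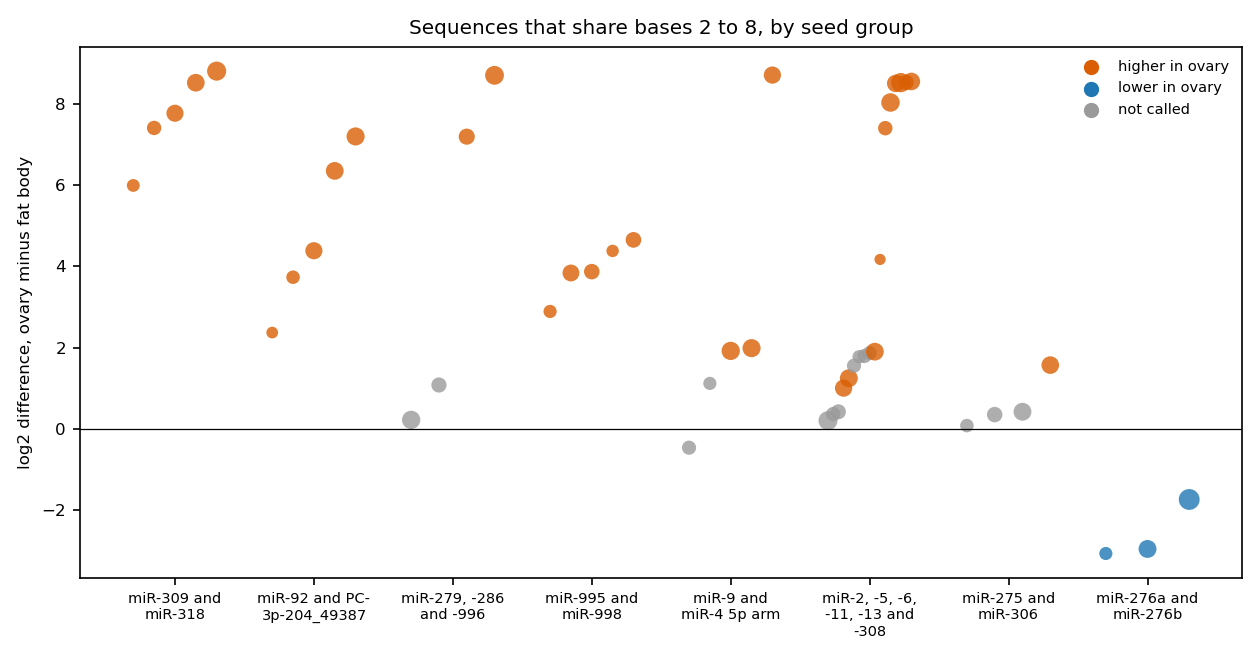
Log2 difference between ovary and fat body for sequences that share bases 2 to 8, in 8 seed groups, with larger points for a higher mean signal. The group of miR-279 and miR-286 runs from 0.22 to 8.70. The lowest point of the miR-309 and miR-318 group is a sequence at 0 in fat body, whose place depends on the pseudocount.

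Seed groups that were lower in ovary were headed by those of miR-274, miR-252 and miR-1. The 3 forms of miR-1 with the seed GGAATGT summed to 3950 and 4770 in ovary, against 86493 and 89843 in fat body (log2 difference -4.34, SE 0.19, adjusted p = 0.000197). The seed TAAGTAC of miR-252 summed to 143 and 87.7 in ovary, against 8741 and 8914 in fat body (log2 difference -6.29). Both sums kept their calls with any library left out.

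The predicted candidates made up 76 tested sequences, of which 26 were higher in ovary (34.2%) and 11 lower (14.5%), beside 36.6% and 20.4% among all sequences. Their median log2 difference was 0.62, but 0.069 without ovary replicate 2. Over the 15 with a mean of at least 100 it turned to -0.59, with 3 higher and 4 lower. They held 1.93% and 2.44% of the summed signal in ovary, against 0.505% and 0.539% in fat body. Of the 26, 21 reached a signal of 10 in the ovary libraries alone, and of the 11, 7 did so in the fat body libraries alone. At 0 in both fat body libraries were 12 candidates, which were at least 3.10-fold to 18.9-fold higher in ovary, with a floor of 3 reads per library. The highest of them, PC-5p-45903_240, had 65.1 and 70.5 in ovary, against 0 and 0 in fat body. Without ovary replicate 1 the candidates had 15 higher and 2 lower calls, and without ovary replicate 2 they had 15 and 8. Without either fat body library they had 7 lower calls, and under TMM 17.

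Among other candidates with a mean of at least 100, PC-3p-2124_7946 had 1881 and 2528 in ovary, against 200 and 68.0 in fat body (log2 difference 4.21, SE 0.61, adjusted p = 0.00456). Those lower in ovary with the largest fold were PC-5p-31886_379, at 10.6 and 51.5 in ovary, against 216 and 138 in fat body (log2 difference -2.82, adjusted p = 0.0470), and PC-3p-4072_4097, at 21.98 and 77.8 in ovary, against 192 and 299 in fat body (log2 difference -2.50, adjusted p = 0.0438). Neither of these was called with any 1 library left out.

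The balance of the arms of a hairpin was compared as log2((3p signal + 1)/(5p signal + 1)), in which the scale of a library cancels. Of 46 miRNAs with both arms tested, 14 (30.4%) differed, 9 with a ratio higher in ovary (19.6%) and 5 lower (10.9%). Among the 9, miR-318 had no 5p signal in either fat body library, so its ratio there has no measured value. The largest of the lower ones was miR-277, at 7.10 and 6.58 in ovary, against 10.41 and 9.46 in fat body (difference -3.09, SE 0.52, adjusted p = 0.00803). Its 5p arm, at 11.0 and 13.6 in ovary, against 5.89 and 10.9 in fat body, did not share the lower level of its 3p arm.

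The ratio of miR-1 was 8.31 and 8.77 in ovary, against 10.61 and 11.54 in fat body (difference -2.54, SE 0.46, adjusted p = 0.00803). That of miR-317 was 4.64 and 4.48 in ovary, against 6.17 and 5.87 in fat body (difference -1.46, SE 0.33, adjusted p = 0.0157). For miR-34, whose main arm is 5p, it was -4.01 and -5.06 in ovary, against -6.73 and -6.99 in fat body (difference 2.32, SE 0.42, adjusted p = 0.00803). In all of these the minor arm made up more of the pair in ovary, where the main arm was lower.

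Arm ratios also differed in miRNAs that were higher in ovary. The ratio of miR-9c was -7.86 and -8.00 in ovary, against -10.19 and -10.63 in fat body (difference 2.48, SE 0.42, adjusted p = 0.00803). Its 3p arm, at 2.36 and 1.21 in fat body, rested on 3 recovered reads there and had passed the filter through the ovary libraries alone. The size of its difference therefore depends on the pseudocount. The ratio of miR-995 was 5.16 and 5.19 in ovary, against 2.84 and 3.40 in fat body (difference 2.06, SE 0.45, adjusted p = 0.0157). In 1 called miRNA, miR-988, the arms changed rank, with mean ratios of 1.45 in ovary and -0.34 in fat body. The arm ratios rest on few libraries: 1 call was left without ovary replicate 1, 6 without ovary replicate 2 and 0 without either fat body library.

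**Figure D5:**
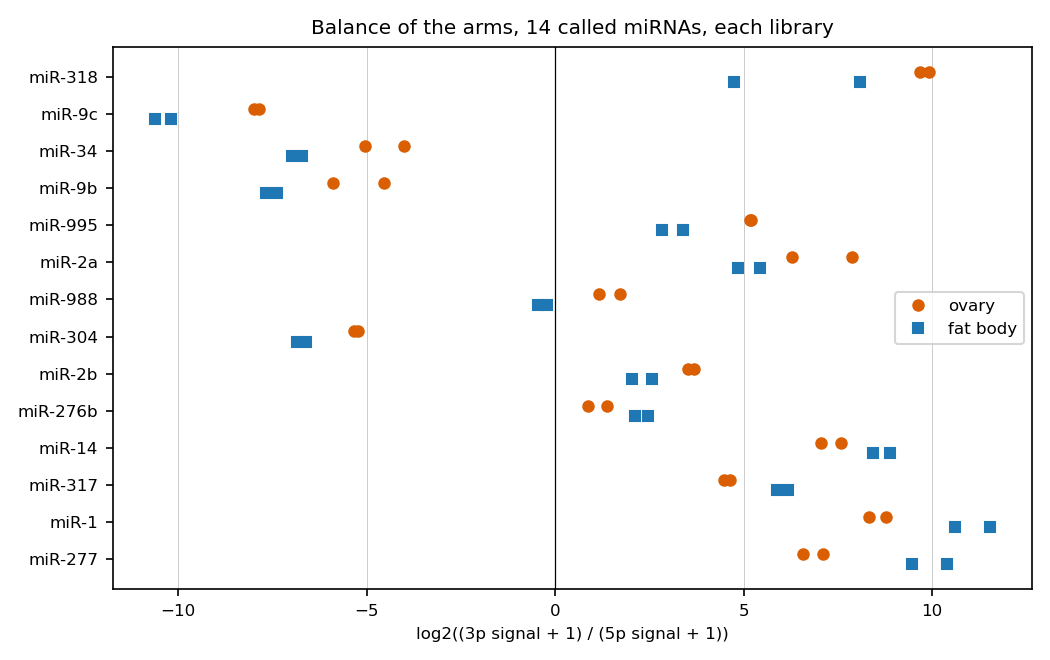
Log2 ratio of the 3p to the 5p arm in each library for the 14 miRNAs whose ratio differed, ordered by the difference. Circles are ovary and squares fat body. The 5p arm of miR-318 was at 0 in fat body, so its squares show the 3p level and the pseudocount. Apart from miR-318, the 13 differences run from 2.48 (miR-9c) to -3.09 (miR-277). The 3p arm of miR-9c rested on 3 recovered reads in fat body, so its squares also depend on the pseudocount.

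Forms of 1 arm mostly moved together. Among 34 arms with at least 2 tested forms, 82 sequences in all, 31 had every form on the side of the main form, and the median spread of the log2 difference among forms was 0.758. The called sequences had the same median length of 22 nt in both directions, and those of 18 or 19 nt were 7.22% of the higher calls, 20.4% of the lower calls and 17.4% of all 265. Signal in sequences that begin with T was 80.0% and 80.2% in ovary, against 91.4% and 91.2% in fat body.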

How the data were processed

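Total RNA was extracted with Trizol, and small RNA libraries were made with a TruSeq kit and sequenced on an Illumina instrument, per the labels' protocols. Per the labels, ACGT101-miR was used by the authors to discard junk, repeats and other classes of RNA. The deposited table gives a normalised signal per mature sequence, marked norm per the file headers. No source used here states the aligner, genome build or scaling method.

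Of 788 entries, 41 repeated a sequence and were summed, and sequences with at least 10 in at least 2 of the 4 libraries were kept. Repeated entries of a sequence held equal values, so summing may count the same reads more than once. This concerns 26 of the 265 tested sequences, whose signal and recovered reads may be too high. With repeated entries counted once, 152 sequences were called, 98 higher and 54 lower, and the median of the miR-309 cluster list was 7.79. Between 90.8% and 93.3% of low values in the 4 libraries were whole multiples of 1 step (tolerance 0.1), and value over step gave the recovered reads, used for alternatives, bounds and counting intervals. Because reads lack molecular identifiers, these intervals and bounds cover counting error only. The filter and the number of reads limit the precision of low values.

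Values were taken as log2(signal + 1) or as log2 arm ratios. They were fitted in limma 3.58.1 (R 4.3.3) with an intensity trend, not robust, which for arm ratios followed the mean level of both arms. Each fit had 2 residual degrees of freedom, and the prior ones were 2.53 for sequences, 2.47 for seed groups and 5.59 for arm ratios. Benjamini-Hochberg adjustment ran over all 265 sequences, 190 seed groups or 46 arm ratios. Folds are of signal + 1. Arms not named in the table were inferred from letters shared with named arms. The method was tested on simulated data. Alternatives used other pseudocounts, filters, scalings, samples and a replicate block, and edgeR 4.0.16 and DESeq2 1.42.0 on recovered reads.

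Named sequences were the 15 called with the largest fold in each direction and a mean of at least 100, the 10 most abundant per tissue, members of lists, up to 8 seed groups per direction and up to 6 arm ratios. Which members to show, and PC-3p-204_49387, miR-2779 and the miR-12 cluster, were chosen after their values were seen. The members and lists were chosen with earlier results of these data known. Replicate numbers were checked as a pairing of tissues, and the deviations of same-numbered libraries correlated at r = 0.0273, so they were not treated as pairs.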

Additional observations from a re-analysis of the deposited data

How the results depend on the processing

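With 2 libraries a tissue, the number of calls depends on which libraries are used. Leaving out each library in turn gave 57 to 123 of 265 sequences, 44 to 78 seed groups and 0 to 6 arm ratios, against 151, 105 and 14 with all libraries, with the lone library assumed to vary like its pair in the other tissue. A mean of at least 100 as the filter left 87 calls, because fewer sequences were tested. With no filter 619 sequences were tested and 180 were called, 127 of them shared with the 151. Other settings gave 140 to 172 calls among the 265 sequences, with 157 by edgeR and 164 by DESeq2 on recovered reads. A block for replicate number gave 172 sequences (107 higher and 65 lower, 150 of them shared with the 151), 114 seed groups and 11 arm ratios. TMM gave 91 higher and 68 lower calls, and library totals gave 102 higher and 44 lower.

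Of 1369 alternative values of named sequences, seed groups and arm ratios, 1244 kept direction and call, 111 kept direction and lost the call, 5 gained it and 9 turned sign, all in sequences that were not called. These 9 were bdo-miR-11 (-0.091 without ovary replicate 2 to 0.50 without ovary replicate 1, -0.13 under TMM and -0.091 in edgeR), bdo-miR-305 (0.12 without ovary replicate 2 to -0.40 without ovary replicate 1, and 0.19 with library totals), dgr-miR-279_R-2 (-0.14 without ovary replicate 2 to 0.58 without ovary replicate 1, -0.11 under TMM and -0.058 in edgeR) and bdo-miR-124 (0.41 without fat body replicate 1 to -1.94 without fat body replicate 2). The cause was not tested. Of the 111 lost calls, 96 came from leaving out a library. Reads limit low values, and a fold from a sequence near 0 depends on the pseudocount.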

Other observations

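Of 7 tested short sequences named after the silkworm miR-2779, 4 were called lower in ovary, beside 20.4% among all sequences. All 7, 18 to 20 nt long, end in the letters cca, which also close mature tRNAs. The most abundant, bmo-miR-2779_L-2, had 561 and 1172 in ovary, against 2695 and 5032 in fat body (log2 difference -2.18, SE 0.53, adjusted p = 0.0231), and the tissues did not overlap. All 7 were higher in fat body replicate 2 than in replicate 1. The origin of these reads was not tested.

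Among the 34 arms with at least 2 forms, the forms other than the main one had a larger share in ovary replicate 1 than in ovary replicate 2 in 28, and a larger share in fat body replicate 1 than in fat body replicate 2 in 18. Ovary replicate 1 was also the library with the most recovered reads, 1865217, and the part of depth in this was not tested.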
